A study of Homo sapiens with 8 samples.

Results

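The 44 genes described here are interferon-stimulated genes (ISGs), a module listed by gene name. The list was made with earlier results of these data known, so its shares of calls are a description and not an independent test. A gene was represented by the transcript cluster, a set of probes for 1 transcribed region, whose annotation gives its symbol alone, and by the brightest such cluster over the 8 arrays where there were several. In this way 42 of the 44 members were measured, of 18417 genes and 33297 transcript clusters on the array. GBP1 shares its cluster with GBP3 and the pseudogene GBP1P1 and was left out of the counts, and STAT2 was not analysed here. All groups were 786-O cells, an RCC line without functional VHL, the protein through which a ubiquitin ligase recognises the HIFα subunits and has them degraded. The 4 groups of 2 biological replicates each, as the labels name them, were VHL+ cells (transfected with a VHL expression vector) under hypoxia, VHL+ cells under normoxia, VHL- cells (not transfected) under hypoxia and VHL- cells under normoxia, all for 24 h. Hypoxia was 1% oxygen in the study's methods. According to the labels the VHL- cells carried no vector, so the vector and the VHL it encodes cannot be told apart, and all VHL+ cells are transfectants of 1 cell line.

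ISGs are the genes that a cell turns on when secreted interferon reaches its receptor, or when viral nucleic acid is sensed in the cell itself. The type I receptor, made of IFNAR1 and IFNAR2, activates the kinases JAK1 and TYK2, and STAT proteins then enter the nucleus with IRF9 and bind the interferon-stimulated response element (ISRE). Interferon gamma acts through another receptor and a STAT dimer that binds the gamma-activated site (GAS). The products of the module are antiviral effectors (BST2, the IFITM, IFIT, OAS and MX families), enzymes that attach or remove the ubiquitin-like protein ISG15 (HERC5, USP18), and transcription factors that renew the response (IRF1, IRF7, IRF9). Hypoxia-inducible factors (HIFs) bind another motif, the hypoxia response element (HRE).

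The promoters of the module carry the motif that names it. Of the 42 measured members, 33 had a promoter in RefSeq (GRCh38.p14), taken as the 250 bases before the start site and the 50 bases from it. The ISRE core GAAANNGAAA, searched on both strands, was in 24 of these 33 members (72.7%) and in 4.38% of all 27305 genes with a promoter (3.57% of 35116 promoters). The GAS motif TTCNNNGAA, a palindrome, was in 10 of the 33 (30.3%) and in 9.38% of all genes, and the HRE core ACGTG, on either strand, in 8 (24.2%) and in 24.9%. The motifs differ in letters, and matches of different motifs were counted separately. The sequences below belong to the 5 members with the largest rise in VHL+ cells over all arrays among those holding an ISRE core. XAF1 rose more (1.13 on the log2 scale) than IFITM3 (1.09), but its promoter held no ISRE core and is not shown. IFITM2 rose by 1.44 and is among the members without a promoter here, so it was not searched. The sequences also include DTX3L, whose start site region is shared with PARP9, and ISG15, which gave no call. They run 5′ to 3′ on the strand of the gene, and capitals mark ISRE cores on either strand, 2 in each but DTX3L, which has 1. In BST2 and in ISG15 the cores overlap.
BST2 (chr19:17405581-17405880, minus strand): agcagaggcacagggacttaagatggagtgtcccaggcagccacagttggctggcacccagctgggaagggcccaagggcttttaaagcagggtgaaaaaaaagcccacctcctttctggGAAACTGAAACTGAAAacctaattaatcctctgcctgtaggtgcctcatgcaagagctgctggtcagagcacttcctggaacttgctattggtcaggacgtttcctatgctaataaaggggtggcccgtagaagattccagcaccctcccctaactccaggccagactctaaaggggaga
IFITM1 (chr11:313790-314089, plus strand): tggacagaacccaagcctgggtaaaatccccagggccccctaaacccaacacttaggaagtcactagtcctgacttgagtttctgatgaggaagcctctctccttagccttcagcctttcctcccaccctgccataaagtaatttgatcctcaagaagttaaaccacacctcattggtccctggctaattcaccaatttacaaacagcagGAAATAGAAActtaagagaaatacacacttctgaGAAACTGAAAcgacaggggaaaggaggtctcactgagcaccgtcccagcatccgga
IFITM3 (chr11:320811-321110, minus strand): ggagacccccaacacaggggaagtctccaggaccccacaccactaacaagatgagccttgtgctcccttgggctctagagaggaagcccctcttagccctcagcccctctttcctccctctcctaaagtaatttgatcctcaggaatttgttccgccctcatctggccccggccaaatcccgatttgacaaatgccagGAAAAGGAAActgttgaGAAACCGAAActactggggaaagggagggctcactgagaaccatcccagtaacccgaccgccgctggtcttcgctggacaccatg
IFI27 (chr14:94110486-94110785, plus strand): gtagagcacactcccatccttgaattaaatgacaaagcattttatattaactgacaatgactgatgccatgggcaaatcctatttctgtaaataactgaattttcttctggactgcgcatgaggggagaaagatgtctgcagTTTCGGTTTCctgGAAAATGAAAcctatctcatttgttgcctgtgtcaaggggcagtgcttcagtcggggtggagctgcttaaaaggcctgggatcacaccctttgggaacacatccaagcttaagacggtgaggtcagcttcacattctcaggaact
IFIT1 (chr10:89392373-89392672, plus strand): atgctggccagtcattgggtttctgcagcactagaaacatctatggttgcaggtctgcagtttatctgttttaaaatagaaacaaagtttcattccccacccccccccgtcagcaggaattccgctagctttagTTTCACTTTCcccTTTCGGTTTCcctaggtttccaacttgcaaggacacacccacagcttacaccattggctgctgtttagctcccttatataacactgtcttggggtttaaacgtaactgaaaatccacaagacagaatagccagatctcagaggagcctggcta
DTX3L (chr3:122564088-122564387, plus strand): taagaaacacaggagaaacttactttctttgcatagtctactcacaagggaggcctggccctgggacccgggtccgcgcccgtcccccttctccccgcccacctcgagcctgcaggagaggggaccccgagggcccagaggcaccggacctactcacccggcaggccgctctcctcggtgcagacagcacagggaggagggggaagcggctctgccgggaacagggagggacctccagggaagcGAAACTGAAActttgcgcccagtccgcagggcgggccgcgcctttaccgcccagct
ISG15 (chr1:1013247-1013546, plus strand): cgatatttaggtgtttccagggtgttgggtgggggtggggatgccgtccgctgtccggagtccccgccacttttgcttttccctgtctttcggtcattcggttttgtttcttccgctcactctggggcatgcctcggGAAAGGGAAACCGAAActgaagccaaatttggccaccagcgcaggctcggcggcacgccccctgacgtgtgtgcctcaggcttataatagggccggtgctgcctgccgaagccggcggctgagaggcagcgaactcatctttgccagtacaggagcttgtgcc

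Counting the first base of the transcript as 1 and the base before it as -1, the cores of BST2 began at -130 and -124, those of IFITM1 at -40 and -6, and those of IFITM3 at -52 and -35. The core of DTX3L began at -6, and the promoter of PARP9, which starts on the opposite strand, holds the same bases from -41 to -32. A match describes these letters only and is not a measured binding site.

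The values are log2 signals after Robust Multichip Average (RMA), so a difference of 1 is a 2-fold difference. Array medians over all clusters lay between 6.60 and 6.91, the lowest on VHL- hypoxia replicate 1 and the highest on VHL+ hypoxia replicate 1, and replicates correlated across clusters, which are not independent, at r between 0.991 and 0.994. VHL itself was at 9.08 and 9.16 in VHL+ and 8.23 and 8.51 in VHL- cells under hypoxia, and at 8.85 and 8.86 in VHL+ and 8.24 and 8.43 in VHL- cells under normoxia. Of 7 markers of renal carcinoma cells, PAX8, CDH6, VIM, KRT8 and KRT18 were at 10.35 or more on every array, CA12 at 9.01 to 10.76 and PAX2 at 7.13 to 8.14. CA12 was lower with VHL under normoxia (adjusted p = 0.00279 in limma) and PAX2 higher under hypoxia (0.0245), and CA12 was higher with hypoxia in VHL+ cells (0.0132). Each of these 3 calls was lost without either VHL+ hypoxia array. Of 7 leukocyte markers, 6 were below their array's median on all 8 arrays, PTPRC among them, as were all 4 endothelial markers, and none of the 11 was called in any comparison. In such bulk RNA, fewer cells of a type and less RNA per cell cannot be told apart.

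On the 2 VHL+ hypoxia arrays the members had median log2 signals of 7.60 and 7.84, and on the VHL+ normoxia arrays 7.16 and 7.44. The medians were 7.00 and 7.00 on the VHL- hypoxia arrays and 7.10 and 7.00 on the VHL- normoxia arrays. The median of all genes moved too, with 7.36 and 7.22 in VHL+ and 6.98 and 7.14 in VHL- cells under hypoxia, and 7.08 and 7.20 in VHL+ and 7.16 and 7.14 in VHL- cells under normoxia. Many of the genes were dim, and 9 to 17 of the 42 members lay below the median of their array.

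**Figure D1:**
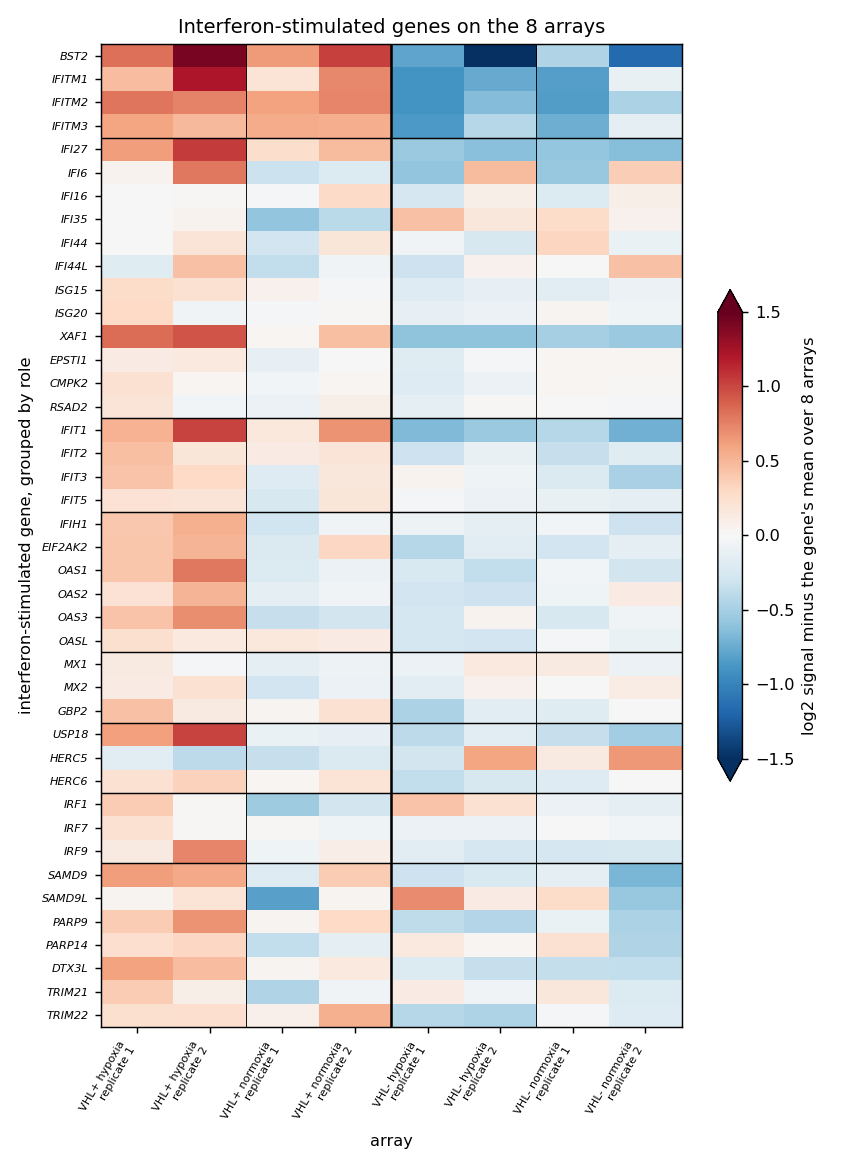
Log2 signal of each of the 42 measured interferon-stimulated genes (rows, in blocks by role) on each of the 8 arrays (columns), as the difference from that gene's own mean over 8 arrays. The top rows, BST2 and the IFITM genes, are red on the 4 VHL+ arrays and blue on the 4 VHL- arrays, and most rows are reddest on the 2 VHL+ hypoxia arrays.

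VHL+ cells were compared with VHL- cells under hypoxia and under normoxia. Under hypoxia 22 of the 42 members (52.4%) were higher in VHL+ cells and none was lower (limma, adjusted p under 0.05 over all clusters), where 14.3% of all genes were higher and 1.72% lower. The members had a median log2 fold change of 0.50, and all genes one of 0.18. Under normoxia 7 members (16.7%) were higher and 1 was lower, against 3.17% and 3.4% of all genes, with a median of 0.12 for the members and -0.03 for all genes. The 7 genes were BST2, IFITM1, IFITM2, IFITM3, IFI27, IFIT1 and XAF1, and all 7 were also among the 22. These counts rested on few arrays. Both were smaller without either VHL+ hypoxia array, and so were the shares of all genes called higher. Of the 22 members called under hypoxia, IFITM2, IFI27, XAF1 and USP18 kept the call without any 1 array, and the other 18 lost it without 1 or either of the VHL+ hypoxia arrays.

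Normalization bore on the comparison under hypoxia more than on that under normoxia. After quantile normalization, which gives all arrays 1 distribution, 7 members were higher and none was lower under hypoxia, against 4.19% and 3.62% of all genes, and 7 higher and none lower under normoxia, against 4.03% and 3.59%. The members higher under hypoxia after it were BST2, IFITM2, IFITM3, IFI27, XAF1, IFIT1 and USP18, all of them among the 22. Under hypoxia the members' median log2 fold change was then 0.32 and that of all genes 0.01. With each array centred on its median, 8 were higher under hypoxia. Over all 8 arrays, in a fit with oxygen as a covariate, 20 members were higher and 2 lower with VHL, where 14.9% of all genes were higher and 4.79% lower. After quantile normalization this comparison had 18 higher and 1 lower member, 17 of the 18 shared with the 20, against 11.9% and 9.45% of all genes. In 17 members every one of the 4 VHL+ arrays was above every VHL- array, as in 13.9% of all genes, and in 1 member every VHL+ array was below, as in 4.14%.

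**Figure D2:**
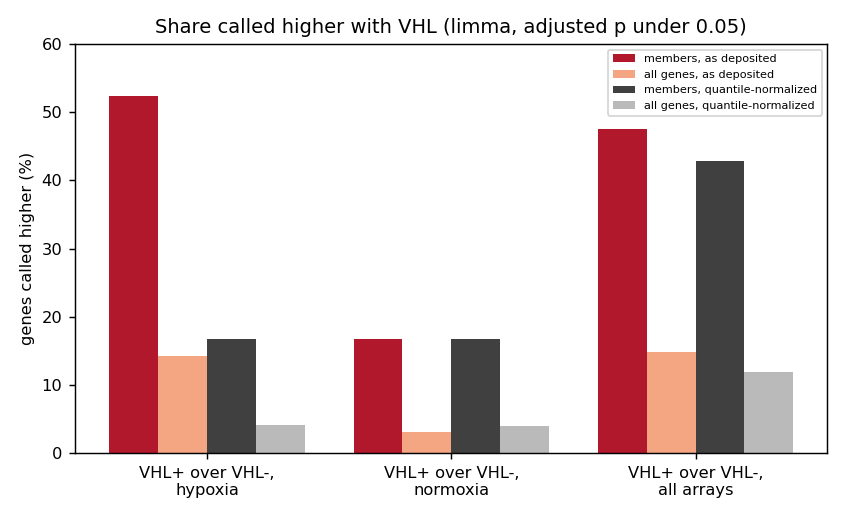
Percent of genes called higher in VHL+ than in VHL- cells (limma, adjusted p under 0.05) under hypoxia, under normoxia and over all arrays, for the 42 members and for all 18417 genes, from the values as deposited and after quantile normalization. Under hypoxia the share of the members is 52.4% as deposited and 16.7% after quantile normalization, and that of all genes is 14.3% and 4.19%.

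The membrane-bound restriction factors stood at the top. All 4 measured members were higher in VHL+ cells under each oxygen condition. BST2 (tetherin) holds budding virus particles at the cell surface. Its log2 signals were 9.09 and 9.68 in VHL+ and 7.47 and 6.75 in VHL- cells under hypoxia, and 8.90 and 9.29 in VHL+ and 7.81 and 7.09 in VHL- cells under normoxia. The VHL+ and VHL- arrays did not overlap, and the log2 fold change was 2.27 (SE 0.24, adjusted p = 9.82e-06 in limma) under hypoxia, a 4.83-fold difference, and 1.64 (SE 0.24, adjusted p = 0.000346) under normoxia. Replicates differed by up to 0.72 in VHL- cells. Without VHL+ hypoxia replicate 2 the adjusted p of BST2 was 0.0512 under hypoxia, and under normoxia it was up to 0.0537 without either VHL+ hypoxia array (limma).

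The IFITM proteins block the fusion of viral envelopes with endosomes or the cell surface, and IFITM1, IFITM2 and IFITM3 all lie on chromosome 11. IFITM2 had 8.91 and 8.85 in VHL+ and 7.21 and 7.45 in VHL- cells under hypoxia, and 8.71 and 8.83 in VHL+ and 7.26 and 7.63 in VHL- cells under normoxia. It was higher by 1.55 (SE 0.15) under hypoxia and 1.32 (SE 0.15) under normoxia, and kept its call in each without any 1 array and after quantile normalization. IFITM1 had 7.56 and 8.31 in VHL+ and 6.21 and 6.35 in VHL- cells under hypoxia, and 7.31 and 7.83 in VHL+ and 6.29 and 7.00 in VHL- cells under normoxia. No VHL- array reached a VHL+ array, and the log2 fold changes were 1.66 and 0.92, with adjusted p values (limma) of 0.0563 and 0.159 after quantile normalization. The call under hypoxia was lost without VHL+ hypoxia replicate 2 (0.0843), and that under normoxia without either VHL+ hypoxia array, VHL+ normoxia replicate 2 or VHL- normoxia replicate 1 (up to 0.155). IFITM3, the brightest member, had 10.74 and 10.63 in VHL+ and 9.28 and 9.72 in VHL- cells under hypoxia, and 10.71 and 10.69 in VHL+ and 9.42 and 10.00 in VHL- cells under normoxia. Its 4 VHL+ arrays lay within 0.11 of each other and above all VHL- arrays, with log2 fold changes of 1.19 and 0.99, and both calls were lost without either VHL+ hypoxia array (adjusted p up to 0.108 and 0.0833 in limma). IFITM sequences resemble each other, and how far the probes of 1 gene bind transcripts of another was not tested.

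**Figure D3:**
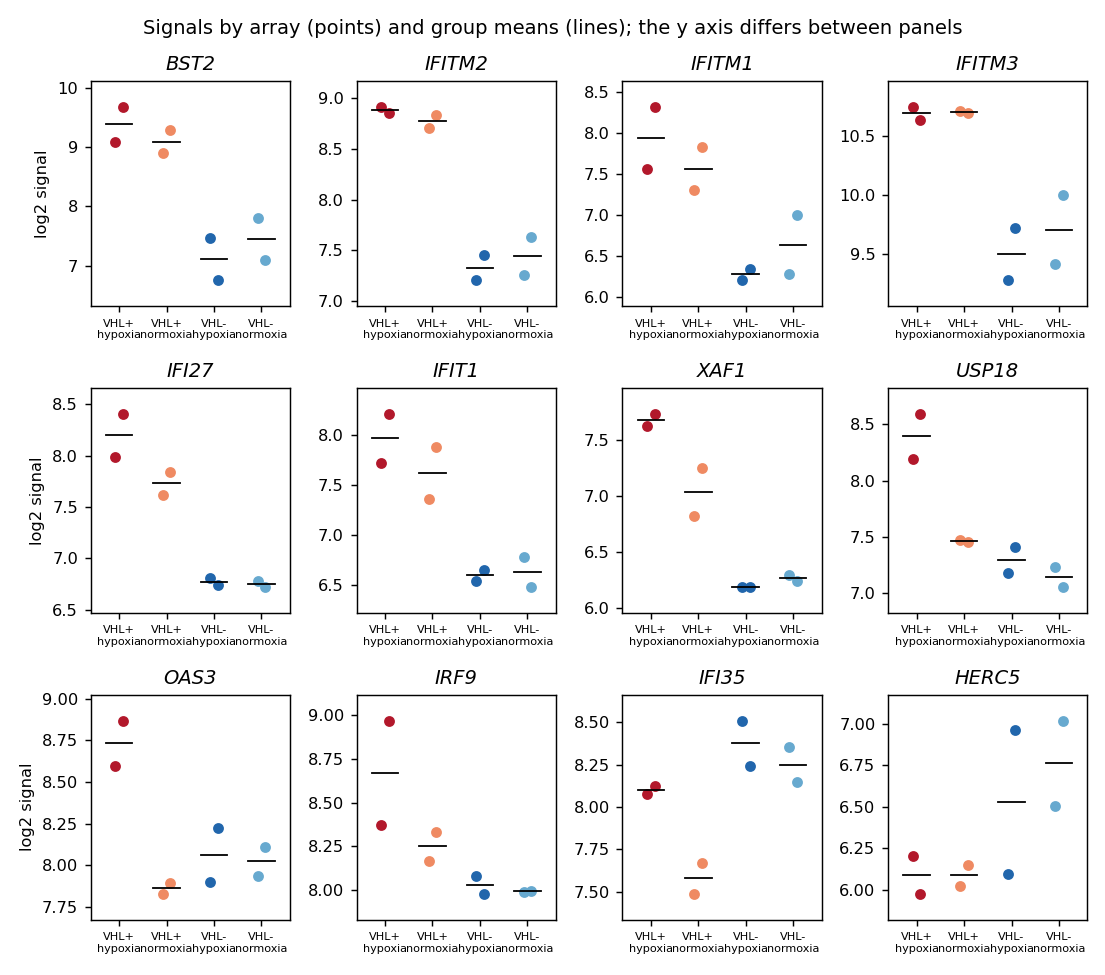
Log2 signal (y axis, on its own scale in each panel) of 12 members on each array (points, 2 per group) with the mean of each group (lines), for VHL+ hypoxia, VHL+ normoxia, VHL- hypoxia and VHL- normoxia. In the first 7 panels all VHL+ points are above all VHL- points, USP18 and OAS3 are highest on the 2 VHL+ hypoxia arrays, and IFI35 and HERC5 have higher group means in VHL- cells.

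The effectors named after interferon induction were mixed. IFI27, a small hydrophobic protein, and XAF1, a pro-apoptotic antagonist of XIAP, were the members of this group that rose under each oxygen condition. IFI27 had 7.99 and 8.41 in VHL+ and 6.81 and 6.74 in VHL- cells under hypoxia, and 7.62 and 7.84 in VHL+ and 6.78 and 6.72 in VHL- cells under normoxia. Its log2 fold changes were 1.43 (SE 0.15) and 0.98 (SE 0.15), and it kept both calls without any 1 array. XAF1 had 7.63 and 7.74 in VHL+ and 6.19 and 6.19 in VHL- cells under hypoxia, and 6.82 and 7.25 in VHL+ and 6.29 and 6.24 in VHL- cells under normoxia, so that the VHL- arrays lay below the array medians. The log2 fold changes were 1.49 under hypoxia and 0.77 under normoxia, and the call under normoxia was lost without VHL+ normoxia replicate 2 or without either VHL+ hypoxia array (highest adjusted p = 0.0620 in limma).

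Of the other 10 effectors, none was called under hypoxia. IFI35, chosen here after its values were seen as the single member called lower under normoxia, had 7.49 and 7.67 in VHL+ and 8.36 and 8.14 in VHL- cells under normoxia (log2 fold change -0.67, SE 0.14, adjusted p = 0.00879 in limma). Under hypoxia it had 8.08 and 8.12 in VHL+ and 8.51 and 8.24 in VHL- cells (-0.28, not called), and its adjusted p under normoxia was 0.0607 after quantile normalization and up to 0.136 without either VHL+ hypoxia array or VHL- normoxia replicate 1. Over all arrays it was lower with VHL (-0.47, adjusted p = 0.00397), and this call held after quantile normalization (0.00657) and without any 1 array (up to 0.0458, in limma). ISG15, the ubiquitin-like modifier, had 7.39 and 7.35 in VHL+ and 6.93 and 7.00 in VHL- cells under hypoxia (0.41), and 7.18 and 7.10 in VHL+ and 6.96 and 7.02 in VHL- cells under normoxia (0.15). Its VHL+ arrays were above its VHL- arrays throughout, and neither difference was called. RSAD2 (viperin), EPSTI1 and CMPK2 were below their array's median on all 8 arrays, and their log2 fold changes lay between -0.10 and 0.27. IFI6 followed the replicate number in VHL- cells, with 8.39 and 9.45 under hypoxia and 8.40 and 9.35 under normoxia, beside 9.03 and 9.76 in VHL+ cells under hypoxia and 8.66 and 8.77 in VHL+ cells under normoxia, and gave no call.

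Of the IFIT family, which binds viral RNA and blocks its translation, IFIT1 rose under each oxygen condition and IFIT2 under hypoxia. IFIT1 had 7.72 and 8.22 in VHL+ and 6.54 and 6.65 in VHL- cells under hypoxia, and 7.36 and 7.89 in VHL+ and 6.78 and 6.49 in VHL- cells under normoxia. The groups did not overlap, and the log2 fold changes were 1.37 (SE 0.18) and 0.99 (SE 0.18), with adjusted p values (limma) of 0.0613 under hypoxia without VHL+ hypoxia replicate 2 and up to 0.0576 under normoxia without either VHL+ hypoxia array. IFIT2 had 7.07 and 6.81 in VHL+ and 6.31 and 6.51 in VHL- cells under hypoxia, higher by 0.53 on the log2 scale (adjusted p = 0.0214, and 0.0727 after quantile normalization, in limma), and 6.75 and 6.82 in VHL+ and 6.29 and 6.44 in VHL- cells under normoxia. IFIT3 and IFIT5 had log2 fold changes between 0.09 and 0.37 and passed in neither, and IFIT3 was called over all arrays (0.35).

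All 6 sensors of double-stranded RNA and their enzymes were higher in VHL+ cells under hypoxia and none was called under normoxia. IFIH1 (MDA5) is a cytoplasmic RNA sensor, EIF2AK2 (PKR) halts translation, and OAS1, OAS2 and OAS3 make the 2-5A that activates RNase L. OASL completes the group. The log2 fold changes of the 6 genes were 0.47 to 0.90 under hypoxia and -0.16 to 0.26 under normoxia. EIF2AK2 had 10.02 and 10.12 in VHL+ and 9.18 and 9.45 in VHL- cells under hypoxia, and 9.40 and 9.92 in VHL+ and 9.33 and 9.47 in VHL- cells under normoxia, where the groups overlapped. OAS1 had the largest difference of the 6 under hypoxia, 0.90, with 7.56 and 7.93 in VHL+ and 6.91 and 6.78 in VHL- cells. None of the 6 passed under hypoxia after quantile normalization, with adjusted p values (limma) between 0.0508 and 0.157.

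Of the 3 measured dynamin-like GTPases 1 was called. MX1 and MX2, which trap viral nucleocapsids, were below the array median on all 8 arrays and had log2 fold changes between -0.25 and 0.22. GBP2, a guanylate-binding protein, was below it as well and was called under hypoxia (0.61, with 6.83 and 6.53 in VHL+ and 5.93 and 6.23 in VHL- cells), but not after quantile normalization (adjusted p = 0.0699 in limma).

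Among the genes of ISG15 conjugation, USP18 removes ISG15 from proteins and binds IFNAR2, which dampens signalling. It had 8.20 and 8.59 in VHL+ and 7.18 and 7.41 in VHL- cells under hypoxia, and 7.47 and 7.45 in VHL+ and 7.23 and 7.05 in VHL- cells under normoxia. Its 2 VHL+ hypoxia arrays stood apart from the other 6. The log2 fold change was 1.10 (SE 0.15, adjusted p = 0.000143 in limma) under hypoxia and 0.32 under normoxia, and the call under hypoxia held without any 1 array and after quantile normalization (adjusted p = 0.0253). HERC6 was higher under hypoxia by 0.59. HERC5, the main ISG15 ligase in human cells, was lower with VHL over all arrays (-0.56, SE 0.14, adjusted p = 0.00808, and 0.0540 after quantile normalization, in limma). Without VHL+ hypoxia replicate 1 its adjusted p was 0.123. It had 6.21 and 5.98 in VHL+ and 6.09 and 6.96 in VHL- cells under hypoxia, and 6.02 and 6.15 in VHL+ and 6.51 and 7.02 in VHL- cells under normoxia. The groups overlapped under hypoxia and most of the values were below the array medians.

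IRF9, the DNA-binding partner of the STAT proteins, was the single transcription factor of the module to be called. It had 8.37 and 8.97 in VHL+ and 8.08 and 7.98 in VHL- cells under hypoxia, higher by 0.64 on the log2 scale (SE 0.17, adjusted p = 0.0167, and 0.398 after quantile normalization, in limma), and 8.17 and 8.33 in VHL+ cells and a mean of 7.99 (SD 0.00674, n = 2) in VHL- cells under normoxia. Without VHL+ hypoxia replicate 2, on which IRF9 was highest, the adjusted p was 0.144. IRF1, the factor induced by interferon gamma, had 8.57 and 8.21 in VHL+ and 8.62 and 8.42 in VHL- cells under hypoxia, and 7.66 and 7.92 in VHL+ and 8.10 and 8.04 in VHL- cells under normoxia. IRF7, which drives interferon alpha genes, had 7.53 and 7.31 in VHL+ and 7.21 and 7.20 in VHL- cells under hypoxia, and 7.31 and 7.23 in VHL+ and 7.30 and 7.25 in VHL- cells under normoxia. Neither factor passed in any comparison.

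Of the 7 genes of the SAMD9, PARP and ubiquitin ligase group, 4 were higher under hypoxia. SAMD9, which restricts poxviruses, had 8.31 and 8.25 in VHL+ and 7.38 and 7.45 in VHL- cells under hypoxia (log2 fold change 0.86), and 7.49 and 8.07 in VHL+ and 7.55 and 7.00 in VHL- cells under normoxia. PARP9 and DTX3L form an ADP-ribosylating ubiquitin ligase complex and start from the shared region printed above. PARP9 had 7.82 and 8.11 in VHL+ and 7.06 and 7.00 in VHL- cells under hypoxia (0.94, SE 0.16), and 7.48 and 7.74 in VHL+ and 7.34 and 6.96 in VHL- cells under normoxia. DTX3L had 9.81 and 9.68 in VHL+ and 9.01 and 8.86 in VHL- cells under hypoxia (0.81, SE 0.13), and 9.26 and 9.36 in VHL+ and 8.86 and 8.85 in VHL- cells under normoxia. Both genes had all 4 VHL+ arrays above all VHL- arrays, with adjusted p values of 0.0580 and 0.0554 under hypoxia after quantile normalization and calls over all arrays under either scaling (limma). TRIM22 had 6.62 and 6.63 in VHL+ and 5.96 and 5.93 in VHL- cells under hypoxia (0.68), and 6.45 and 6.92 in VHL+ and 6.37 and 6.18 in VHL- cells under normoxia. SAMD9L, PARP14 and TRIM21 were not called.

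**Figure D4:**
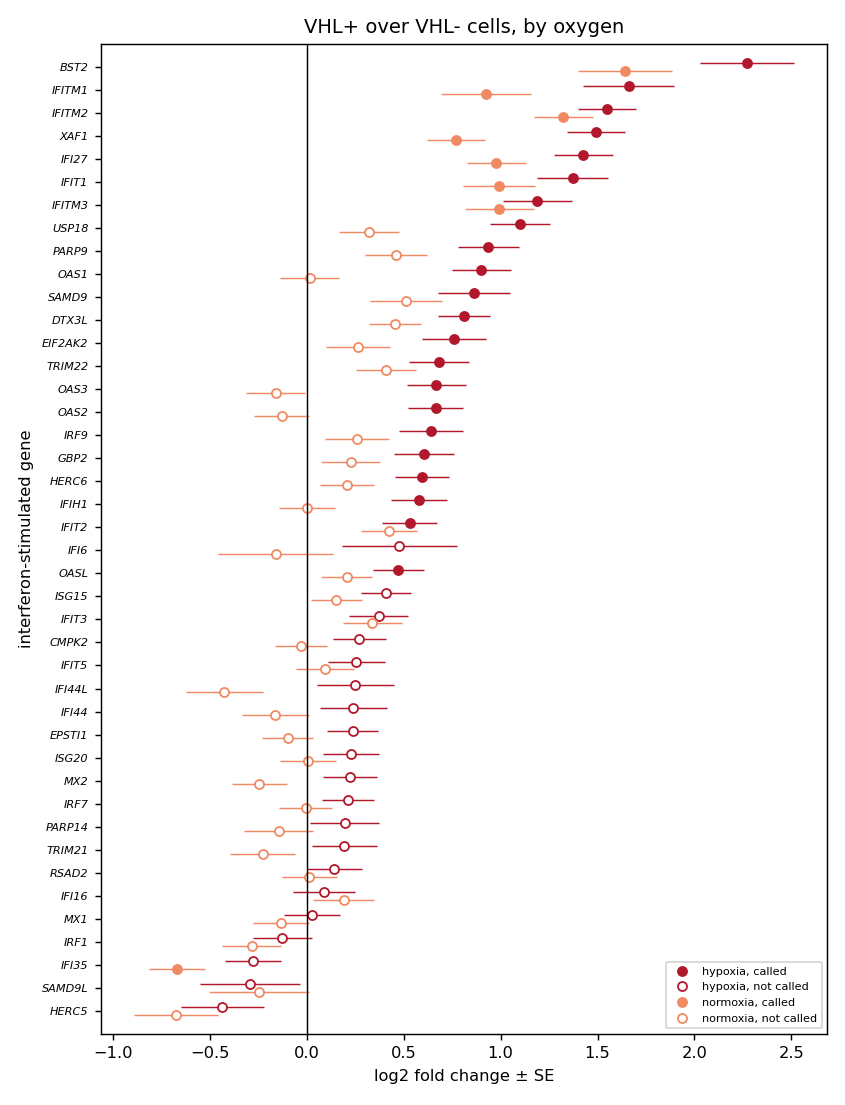
Log2 fold change of VHL+ over VHL- cells (x axis, with SE from limma) for each of the 42 members (y axis, ordered by the value under hypoxia), under hypoxia and under normoxia. Filled points were called (22 of 42 under hypoxia, 8 under normoxia), and BST2 has the largest values at 2.27 and 1.64.

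The ISRE core was about as frequent in members with a call as in those without. Of the 15 members called higher under hypoxia that had a promoter, 11 held the core, and of the 18 not called 13 did. ISG15 and MX1 each held it and gave no call, and HERC5, called lower with VHL over all arrays, held 3 cores. The HRE core was in 2 of the 15 and in 6 of the 18. No comparison of these shares was tested.

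Hypoxia was compared with normoxia in VHL+ and in VHL- cells. In VHL+ cells 2 members, USP18 and OAS3, were higher under hypoxia and none was lower, where 0.239% of all genes were higher and 0.00543% lower. The members' median log2 fold change was 0.35, that of all genes 0.11, and 39 of the 42 (92.9%) were above 0, as were 85.6% of all genes. In VHL- cells no member was called in either direction with limma, where 0.0326% of all genes were higher and 0.0434% lower. There 5 of the 42 members had an unadjusted p under 0.05, beside 1765 of all 33297 clusters. The members' median there was -0.06 and that of all genes -0.11. By an ordinary one-way test on the 2 groups compared alone, at an unadjusted p under 0.005, no member passed in VHL+ or in VHL- cells. Few of all genes did, with 0.434% higher and 0.0163% lower in VHL+ cells, and 0.0217% higher and 0.749% lower in VHL- cells.

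USP18 had 8.20 and 8.59 under hypoxia and 7.47 and 7.45 under normoxia in VHL+ cells, and the rise of 0.93 was called (SE 0.15, adjusted p = 0.0133 in limma). In VHL- cells it had 7.18 and 7.41 under hypoxia and 7.23 and 7.05 under normoxia (0.15). OAS3, chosen here after its values were seen, had 8.59 and 8.87 under hypoxia and 7.83 and 7.89 under normoxia in VHL+ cells (0.87, SE 0.15, adjusted p = 0.0200 in limma), and 7.90 and 8.23 under hypoxia and 7.93 and 8.11 under normoxia in VHL- cells (0.04). In each gene both VHL+ hypoxia arrays were above all other arrays. The calls were lost after quantile normalization (adjusted p = 0.544 for USP18 and 0.461 for OAS3, in limma) and without either VHL+ hypoxia array. Without VHL+ normoxia replicate 2 more members were called, and so was a larger share of all genes. OAS1 (0.75, adjusted p = 0.0662 in limma) was next.

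**Figure D5:**
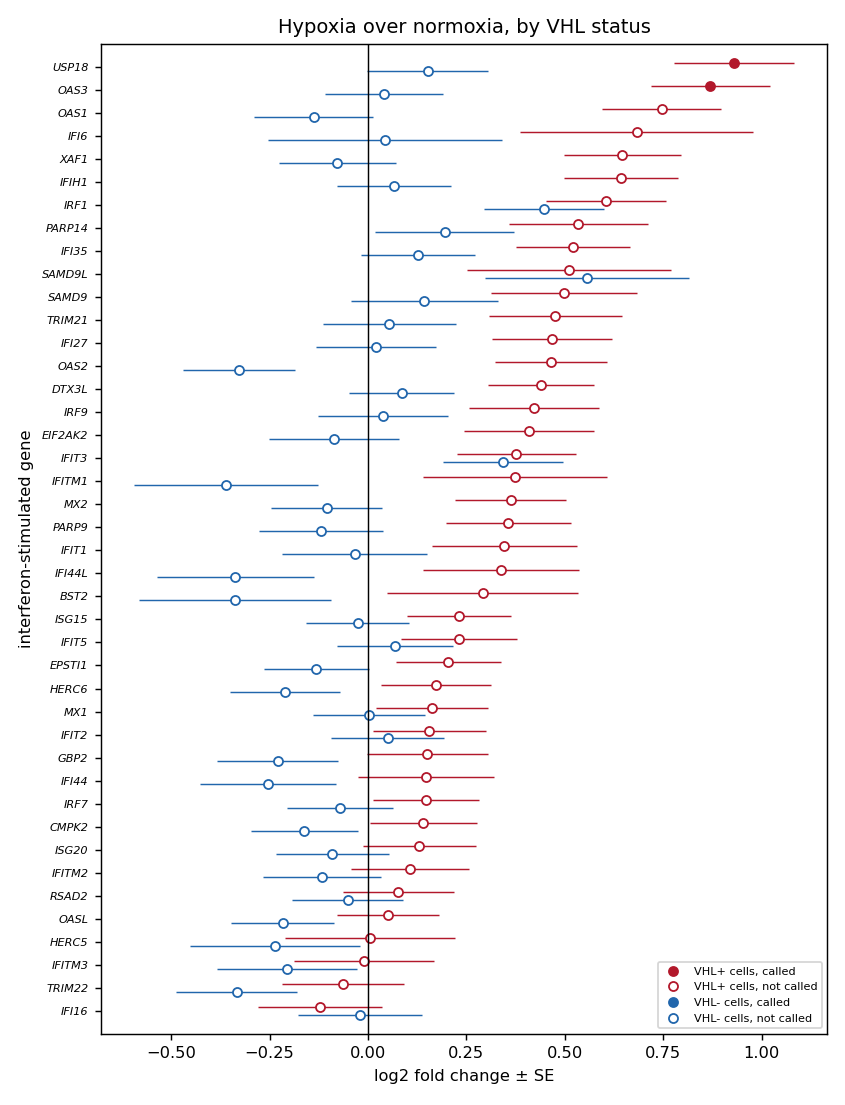
Log2 fold change of hypoxia over normoxia (x axis, with SE from limma) for each of the 42 members (y axis, ordered by the value in VHL+ cells), in VHL+ and in VHL- cells. USP18 and OAS3 (filled) were called in VHL+ cells, and no member was called in VHL- cells.

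The difference between the hypoxia effects in VHL+ and VHL- cells, tested as the interaction of VHL and hypoxia, was above 0 in 40 of the 42 members (95.2%) and in 95.9% of all genes, with a median of 0.37 beside 0.22 for all genes. After quantile normalization it was above 0 in 30 members and in 50.3% of all genes. No member was called with limma in either direction, as 0% of all genes were higher or lower. An unadjusted p under 0.05 was found in 11 of the 42 members, beside 1869 of all 33297 clusters. OAS1 had the largest interaction (0.88), followed by OAS3 (0.83). The wider set of rises with VHL under hypoxia than under normoxia was therefore not shown to be a difference between the oxygen conditions for any 1 member.

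Upstream of the module no interferon, receptor or kinase gene was called higher with VHL, while some feedback inhibitors were. Of 21 interferon genes 16 were measured and none was called in any comparison, and 14 of them, IFNB1 among them, were below their array's median on all 8 arrays. IFNL1 was below it on 5 arrays, and IFNL3, at 7.92 to 8.10, was above it on all. Of 10 receptor and kinase genes none was higher with VHL. IFNAR2 was lower in VHL+ cells under normoxia (-0.97, SE 0.16, adjusted p = 0.000890 in limma), with 7.67 and 8.12 in VHL+ and 8.84 and 8.88 in VHL- cells, and all 10 had a negative log2 fold change there, where 41.3% of all genes had a positive one. Over all arrays IFNAR2 (-0.68) and IFNGR1 (-0.40) were lower, IFNGR1 with an adjusted p of up to 0.256 without 1 array. After quantile normalization 4 of the 10 were lower under normoxia, 1 under hypoxia and 8 over all arrays, beside 3.59%, 3.62% and 9.45% of all genes. Of 8 feedback inhibitors, 3 were higher under hypoxia and 1 under normoxia, beside 14.3% and 3.17% of all genes. After quantile normalization 1 was higher under hypoxia and 3 under normoxia, beside 4.19% and 4.03% of all genes. PTPN6 (SHP-1), a phosphatase of cytokine receptors, had log2 fold changes of 1.18 under hypoxia and 0.82 under normoxia, and PTPN1 and PIAS1 were higher under hypoxia by 0.59 and 0.55. PTPN6 kept its calls after quantile normalization, and PTPN1 and PIAS1 did not keep theirs under hypoxia (adjusted p = 0.0571 and 0.0752 in limma). Over all arrays PTPN1 (0.53) and PIAS1 (0.52) were higher with VHL, also after quantile normalization (adjusted p = 0.00261 and 0.00389 in limma). In that comparison 14.9% of all genes were higher as deposited and 11.9% after quantile normalization.

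Of 17 nucleic acid sensors and adaptors, 3 were higher with VHL under hypoxia, near the 14.3% of all genes. After quantile normalization 1 was, beside 4.19% of all genes. TMEM173 (STING), the adaptor of cytosolic DNA sensing, had 8.69 and 8.82 in VHL+ and 7.40 and 7.34 in VHL- cells under hypoxia, and 8.28 and 8.68 in VHL+ and 7.49 and 7.31 in VHL- cells under normoxia. Its log2 fold changes were 1.38 (SE 0.15) and 1.08 (SE 0.15), and all VHL+ arrays were above all VHL- arrays. Both calls held after quantile normalization and without any 1 array. The RNA sensor DDX58 (RIG-I, 0.70) and its relative DHX58 (LGP2, 0.60) were higher under hypoxia as deposited and not after quantile normalization (adjusted p = 0.395 and 0.173 in limma). The kinase IKBKE was lower under normoxia (-0.70), but not without either VHL+ hypoxia array or VHL- normoxia replicate 2 (adjusted p up to 0.114 in limma).

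A second list of 40 measured interferon-induced genes outside the module changed in both directions with VHL. Under hypoxia 13 were higher and 4 lower, beside 14.3% and 1.72% of all genes, and under normoxia 2 were higher and 4 lower, beside 3.17% and 3.4%. After quantile normalization 2 were higher and 4 lower under hypoxia, beside 4.19% and 3.62% of all genes. Under normoxia 1 was then higher and 5 lower, beside 4.03% and 3.59%. After median centring 1 was higher and 4 lower in each, beside 3.87% and 2.14% under hypoxia and 3.15% and 2.23% under normoxia. Among the higher genes under hypoxia were the helicase gene DDX60 (1.00), the chemokine gene CXCL10 (0.97) and the phospholipid scramblase gene PLSCR1 (0.92), none of which was called after quantile normalization (adjusted p = 0.0572, 0.0757 and 0.108 in limma). NMI and NLRC5 were called under hypoxia after it. The 2 genes higher under normoxia, TRIM5 (0.74) and LGALS3BP (0.67), were also higher under hypoxia (0.80 and 0.78). Of these calls, only that of LGALS3BP under normoxia held after quantile normalization (adjusted p = 0.0327 in limma). Over all arrays both genes were called higher under either scaling, beside 14.9% and 11.9% of all genes. The 4 lower genes were lower under each oxygen condition. SLFN11, which blocks stalled replication forks, had 8.34 and 7.67 in VHL+ and 9.40 and 9.79 in VHL- cells under hypoxia, and 7.58 and 7.32 in VHL+ and 9.66 and 9.81 in VHL- cells under normoxia (log2 fold changes -1.59 and -2.28). TNFSF10 (TRAIL), a ligand of death receptors, had 10.11 and 9.87 in VHL+ and 11.81 and 12.16 in VHL- cells under hypoxia, and 9.96 and 10.11 in VHL+ and 12.12 and 12.03 in VHL- cells under normoxia (-1.99 and -2.04). SLFN5 (-1.27 and -1.16) and the tryptophanyl-tRNA synthetase gene WARS (-0.75 and -0.62) were lower by smaller amounts, and their calls under hypoxia were lost without either VHL+ hypoxia array, as was that of WARS under normoxia, also lost without VHL+ normoxia replicate 1 or VHL- normoxia replicate 2. SLFN11 and TNFSF10 kept theirs without any 1 array. With hypoxia in VHL+ cells CXCL10 was the single gene of this list to be called (0.86, adjusted p = 0.0367 in limma), with 6.42 and 6.98 under hypoxia and 5.75 and 5.93 under normoxia. After quantile normalization its adjusted p was 0.680, and the call was also lost without either VHL+ hypoxia array or VHL+ normoxia replicate 1.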

How the data were processed

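Total RNA of 8 cultures of 786-O cells, 2 for each of 4 groups, had been amplified, labelled and hybridized to Affymetrix Human Gene 1.0 ST arrays. The authors deposited log2 signals, 1 for each transcript cluster and array, made by RMA (Robust Multichip Average) with the Partek software (versions and genome build not given in the sources used here); the values run from 4.81 to 14.0. The number of arrays limits the precision, and p values cover the spread between these cultures.

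The values were taken as deposited. Contrasts of 1 fit over all 33297 clusters (limma 3.58.1 in R 4.3.3, a mean for each group, 4 residual and 14.0 prior degrees of freedom) had p values adjusted after Benjamini and Hochberg over all clusters, with a threshold of 0.05. A fit with oxygen as a covariate gave the effect of VHL over all arrays. Gene symbols are those of GEO's platform annotation, which gives 1 symbol for 19460 clusters, several for 1754 and none for 12083; each gene was its brightest cluster. The fit was tested on simulated data. Motifs were counted in RefSeq promoters (GRCh38.p14) with pandas in Python.

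The members and gene lists were chosen with earlier results of these data known. Members were given by array where called in any comparison, up to the 15 with the largest effect of VHL over all arrays, with IRF1, IRF7, IRF9 and USP18; the others are given by range or count, and those named besides were chosen after their values were seen. Genes of the pathway lists were named where called with VHL, up to 4 per list. Of the second list of interferon-induced genes more were named, the further ones chosen after their values were seen. An ordinary one-way test, an unadjusted threshold, other scalings, filters and representations, and each array left out in turn were alternatives. The one-way test was made on the groups compared alone. Over all arrays its place was taken by an ordinary test in the fit with oxygen as a covariate. Its threshold was that of the study, whose own one-way test may have been run otherwise, so its counts are not the study's. No protein sequence was used.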

Additional observations from a re-analysis of the deposited data

How the results depend on the processing

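Counts of called members are given. With VHL under normoxia (8 called), 2 were called in a fit to the groups compared alone and 2 with a minimum change of 2-fold. By an ordinary one-way test on the groups compared alone, at an unadjusted p under 0.005, 0 were called. Of all genes 0.342%, 0.700% and 0.369% were higher in these settings, and 0.771%, 1.00% and 0.776% lower. With VHL under hypoxia (22), 7 were called after quantile normalization, 8 after median centring, 8 with the 2-fold minimum and 3 by the one-way test. Of all genes 4.19%, 3.87%, 1.74% and 1.47% were higher there, and 3.62%, 2.14%, 0.538% and 0.109% lower. With VHL over all arrays (22), 7 were called with the 2-fold minimum. An ordinary test in the fit with oxygen as a covariate, at the same unadjusted p, called 9. Of all genes 1.06% and 4.85% were higher there, and 0.760% and 1.65% lower. With hypoxia in VHL+ cells (2), 0 were called after quantile normalization, after median centring and without dim clusters. With the 2-fold minimum and by the one-way test 0 were called as well. Of all genes 0.00543%, 0.00543%, 0.0718%, 0.114% and 0.434% were higher there, in the order given. There were 5 members called with a trend and robust estimation, 6 in a fit to the groups compared alone and 9 with limma at an unadjusted p under 0.005. Of all genes 0.793%, 0.977% and 1.63% were higher in these last settings, and 0.0326%, 0.0489% and 0.109% lower. For the interaction (0), 2 were called with a trend and robust estimation and 5 at the unadjusted p. Of all genes 0.266% and 0.565% were higher there and 0.00543% lower in each. Without each array in turn, the counts ran from 2 to 12 with VHL under normoxia, 5 to 23 with VHL under hypoxia, 12 to 24 with VHL over all arrays, 0 to 8 with hypoxia in VHL+ cells, 0 to 1 with hypoxia in VHL- cells and 0 to 2 for the interaction. Without VHL+ hypoxia replicate 1 the count over all arrays was 12. No call of a named member turned its direction under any of these alternatives. The shares of all genes called higher also moved with the array left out. With VHL under normoxia, under hypoxia and over all arrays they were smaller without either VHL+ hypoxia array than with every array kept. With VHL under hypoxia they were larger without either VHL+ normoxia array. The ranges of the member counts are therefore not a result about the members alone. The replicate block gave 10 called with VHL under normoxia, 24 under hypoxia, 22 over all arrays, 7 with hypoxia in VHL+ cells, 0 in VHL- cells and 1 for the interaction. Of all genes 5.24%, 17.7%, 16.3%, 1.38%, 0.190% and 0.331% were higher with the block. The shares lower were 5.10%, 2.50%, 5.30%, 0.0869%, 0.331% and 0.0217%. Deviations of same-numbered arrays correlated most between the oxygen conditions of the same cells, at r = 0.60 in VHL- and 0.31 in VHL+ cells. Between VHL+ and VHL- groups r lay between 0.05 and 0.21. No label says that a number marks a shared culture, so the numbers were not taken to pair the cultures in the main fit. The cause of these differences was not tested.

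With 2 arrays per group, 4 residual degrees of freedom and many members near the median of the array, a missing call does not show that a gene did not differ. VHL+ hypoxia replicate 1 has the highest array median, 6.91, and its part in the calls under hypoxia was tested only by leaving it out and by the scalings above.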

Other observations

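A cluster that the annotation gives to GBP1P1, GBP3 and GBP1 together had log2 signals of 10.68 and 10.46 in VHL+ and 10.15 and 9.52 in VHL- cells under hypoxia, and 9.60 and 10.05 in VHL+ and 9.84 and 9.43 in VHL- cells under normoxia. It was higher with VHL under hypoxia (0.73, adjusted p = 0.0212 in limma) and overlapped between VHL+ and VHL- cells under normoxia. A cluster given to USP18 and the pseudogene USP41P had 9.24 and 9.56 in VHL+ and 7.99 and 8.14 in VHL- cells under hypoxia, and 8.43 and 8.72 in VHL+ and 8.03 and 7.68 in VHL- cells under normoxia. It was higher with VHL under each oxygen condition (1.33, adjusted p = 3.47e-05, under hypoxia and 0.72, adjusted p = 0.0109, under normoxia, in limma), whereas the cluster of USP18 alone was not called under normoxia. With hypoxia in VHL+ cells it was higher by 0.82 (adjusted p = 0.0474 in limma). The dimmer cluster of GBP2 was not called in any comparison.

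IFI30, a lysosomal thiol reductase that interferon gamma induces, was split by replicate number in VHL- cells, with 9.42 and 8.17 under hypoxia and 9.34 and 8.20 under normoxia, beside 9.50 and 9.28 under hypoxia and 9.21 and 9.17 under normoxia in VHL+ cells. IFI6 was split there in the opposite direction, with the higher signals on the arrays of replicate 2.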
